A study of Mus musculus with 40 samples.

Results

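The nuclear genes of oxidative phosphorylation were followed in mouse liver regenerating after partial hepatectomy (PH), an operation that removes part of the liver and drives the hepatocytes of the remnant to divide. Members were chosen by symbol, as every entry named for a subunit or factor of the respiratory complexes and ATP synthase (the Nduf, Sdh, Uqcr, Cox4 to Cox8 and Atp5 families). There were 62 among the 11119 genes of the tables. Grouped by name, they comprised 28 genes of complex I (with Ndufa4, now placed with complex IV, and its relative Ndufa4l2), 4 of complex II, 5 of complex III, 9 of complex IV, 10 of ATP synthase, and 6 assembly factors or related genes that are not subunits (Ndufaf1, Ndufaf2, Ndufaf4, Ndufaf5, Ndufaf6 and Atp5s). Cyc1 of complex III and the mitochondrially encoded subunits were not analysed here.

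Polyadenylated RNA of liver, labelled as hepatocytes, had been sequenced from 40 samples in 9 groups that differ in age, time after PH and treatment with ATRi, an inhibitor of ATR. ATR is the kinase that responds to stalled replication forks, and ATRi was given 24 h after PH. The 12-month groups were 8 mice before PH (0 h), 3 untreated and 3 ATRi mice at 48 h, and 4 ATRi and 4 untreated mice at 72 h. The 3-month groups were 7 mice at 0 h, 3 untreated mice at 48 h, and 4 ATRi and 4 untreated mice at 72 h. No genotypes were compared. Mice Mwt1 to Mwt3 of the 3-month 0 h group, and mice M1 to M3 of each 48 h group, are labelled outside the numbering M545 to M560 of the rest. The 3-month 0 h mean thus mixes both kinds of label, and its part in the differences was not tested. Any comparison of 48 h with 72 h, or with 0 h at 12 months, also sets these kinds of label against each other. Time and kind of label cannot be told apart there. The strain, the sex, a vehicle and the unit of the ATRi dose are not given in the sources used here. All 8 of the 12-month mice at 72 h, and 4 of the 8 at 3 months, were also measured at 0 h.

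Oxidative phosphorylation takes place in the inner mitochondrial membrane. Complex I takes electrons from NADH, and complex II takes them from succinate, which makes it also an enzyme of the tricarboxylic acid cycle. Both pass electrons through ubiquinone to complex III, cytochrome c and complex IV, which reduces oxygen, and ATP synthase uses the resulting proton gradient. Nearly all subunits are encoded in the nucleus, with a core encoded in mitochondrial DNA. Hepatocytes are rich in mitochondria, and the liver draws on them for gluconeogenesis, urea synthesis and fatty acid oxidation. Nuclear respiratory factor 1 (NRF1), ETS-family factors such as GABP, estrogen-related receptors (ERR) and YY1 are known regulators of these genes.

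The promoters of 50 members could be read from RefSeq (GRCm38.p6), as the 250 bases before each annotated start. The 4 promoters below belong to members that fell in a test described further on. Ndufa11 is a membrane subunit of complex I and Ndufaf4 a complex I assembly factor, and the capitals in both mark the palindromic core of the NRF1 site (chr17:56717512-56717761, + strand, and chr4:24897833-24898082, + strand). Sdhd is a membrane anchor of complex II (chr9:50603850-50604099, - strand), and its capitals mark the ETS sequence CCGGAAG on the opposite strand. Ndufb2 is an accessory subunit of complex I (chr6:39592315-39592564, + strand), and its capitals mark the ERR sequence AAGGTCA.
Ndufa11: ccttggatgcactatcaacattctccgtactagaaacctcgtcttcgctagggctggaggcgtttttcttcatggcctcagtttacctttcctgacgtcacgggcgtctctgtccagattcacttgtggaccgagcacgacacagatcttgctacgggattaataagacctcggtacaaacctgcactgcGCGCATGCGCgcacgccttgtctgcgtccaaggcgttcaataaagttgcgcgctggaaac
Ndufaf4: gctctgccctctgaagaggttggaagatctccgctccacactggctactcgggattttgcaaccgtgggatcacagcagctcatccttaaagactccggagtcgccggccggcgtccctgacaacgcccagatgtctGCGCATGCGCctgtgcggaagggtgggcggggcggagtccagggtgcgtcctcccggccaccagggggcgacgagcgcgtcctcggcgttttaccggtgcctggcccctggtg
Sdhd: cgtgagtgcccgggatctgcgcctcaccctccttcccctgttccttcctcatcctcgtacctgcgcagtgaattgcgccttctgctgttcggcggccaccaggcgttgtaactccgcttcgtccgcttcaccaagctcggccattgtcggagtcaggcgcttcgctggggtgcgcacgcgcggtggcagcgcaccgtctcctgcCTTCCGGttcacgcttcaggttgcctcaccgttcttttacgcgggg
Ndufb2: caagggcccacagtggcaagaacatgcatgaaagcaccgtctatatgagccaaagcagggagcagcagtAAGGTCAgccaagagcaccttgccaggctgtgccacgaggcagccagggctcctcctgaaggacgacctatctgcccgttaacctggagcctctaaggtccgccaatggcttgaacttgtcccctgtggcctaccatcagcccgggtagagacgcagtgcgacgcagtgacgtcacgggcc

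The NRF1 sequence lay 60 bases before the start in Ndufa11 and 113 before it in Ndufaf4, the ETS sequence 46 before it in Sdhd, and the ERR sequence 181 before it in Ndufb2. Searched on both strands, the NRF1 core of 10 letters was in 3 of the members' 53 windows (5.66%), against 0.784% of all 32536 windows of the same length. Atp5g2, a gene of the ATP synthase c subunit, held the other match. CCGGAAG was in 8 windows (15.1%, against 6.95% of all windows), AAGGTCA in 4 (7.55%, against 4.09%) and the YY1 sequence AAGATGGC in 1 (1.89%, against 1.57%). None of the 16 matches in the members overlapped another. A match is a description of the letters in the window and shows no binding.

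Levels are the authors' log2 values of a quantity called sigma, which the sources do not define, so members were compared between groups and not with each other. Read depth is unknown. For 8 groups the tables hold the authors' mean alone, with no spread between mice. Only the 12-month mice given ATRi and sampled at 72 h have single values as well, from livers M545, M546, M547 and M548. Their deposited group mean was above the mean of the 4 livers by a median of 0.11 over the members (-0.10 to 0.40) and of 0.09 over all genes, and it lay above all 4 livers in 16 members (25.8%) and below them in 1 (1.61%), against 11.8% and 7.43% of all genes. Over the 4 livers the SD of a member was 0.15 at the median (0.03 to 0.66), against 0.23 for all genes. The members' level over the 9 means was 5.27 at the median, against 2.68 for all genes. The part of this higher level in their spread was not tested. In bulk liver, fewer cells of a type and less RNA per cell cannot be told apart. Of the members, 6 are entries joined with an overlapping gene, such as Ndufa4l2 with Shmt2. Pseudogene copies of at least 95% identity over 100 bases or more can share reads with 13 members, most of all Atp5l with 9 copies, Cox7c with 4 and Uqcrb with 3.

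Across the 9 group means, the members had narrower ranges than all genes. The range between a member's highest and lowest mean was 0.76 at the median (0.40 to 1.88), against 0.82 for all genes, and 14 of the 62 (22.6%) had a range of 1 or more, against 37.4% of all genes. Members also had a higher level than all genes (5.27 against 2.68 at the median), whose part in the ranges was not tested. By complex, the median range was 0.80 in complex I, 0.80 in complex II, 0.71 in complex III, 0.72 in complex IV, 0.65 in ATP synthase and 0.77 in the assembly factors. The widest range in each was that of Ndufs6 (1.80), Sdhd (0.96), Uqcrfs1 (1.04), Cox7a2l (1.88), Atp5g1 (0.99) and Atp5s (1.18). The next widest was Ndufs4 (1.65) in complex I, Sdhb (0.84) in complex II, Uqcrc1 (0.87) in complex III, Cox4i2 (1.25) in complex IV, Atp5o (0.93) in ATP synthase and Ndufaf5 (0.90) among the assembly factors. The narrowest was that of Ndufa8 (0.46), Sdha (0.53), the entry joining Uqcrc2 with Pdzd9 (0.40), Cox6b1 (0.41), Atp5g3 (0.44) and Ndufaf2 (0.48).

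**Figure D1:**
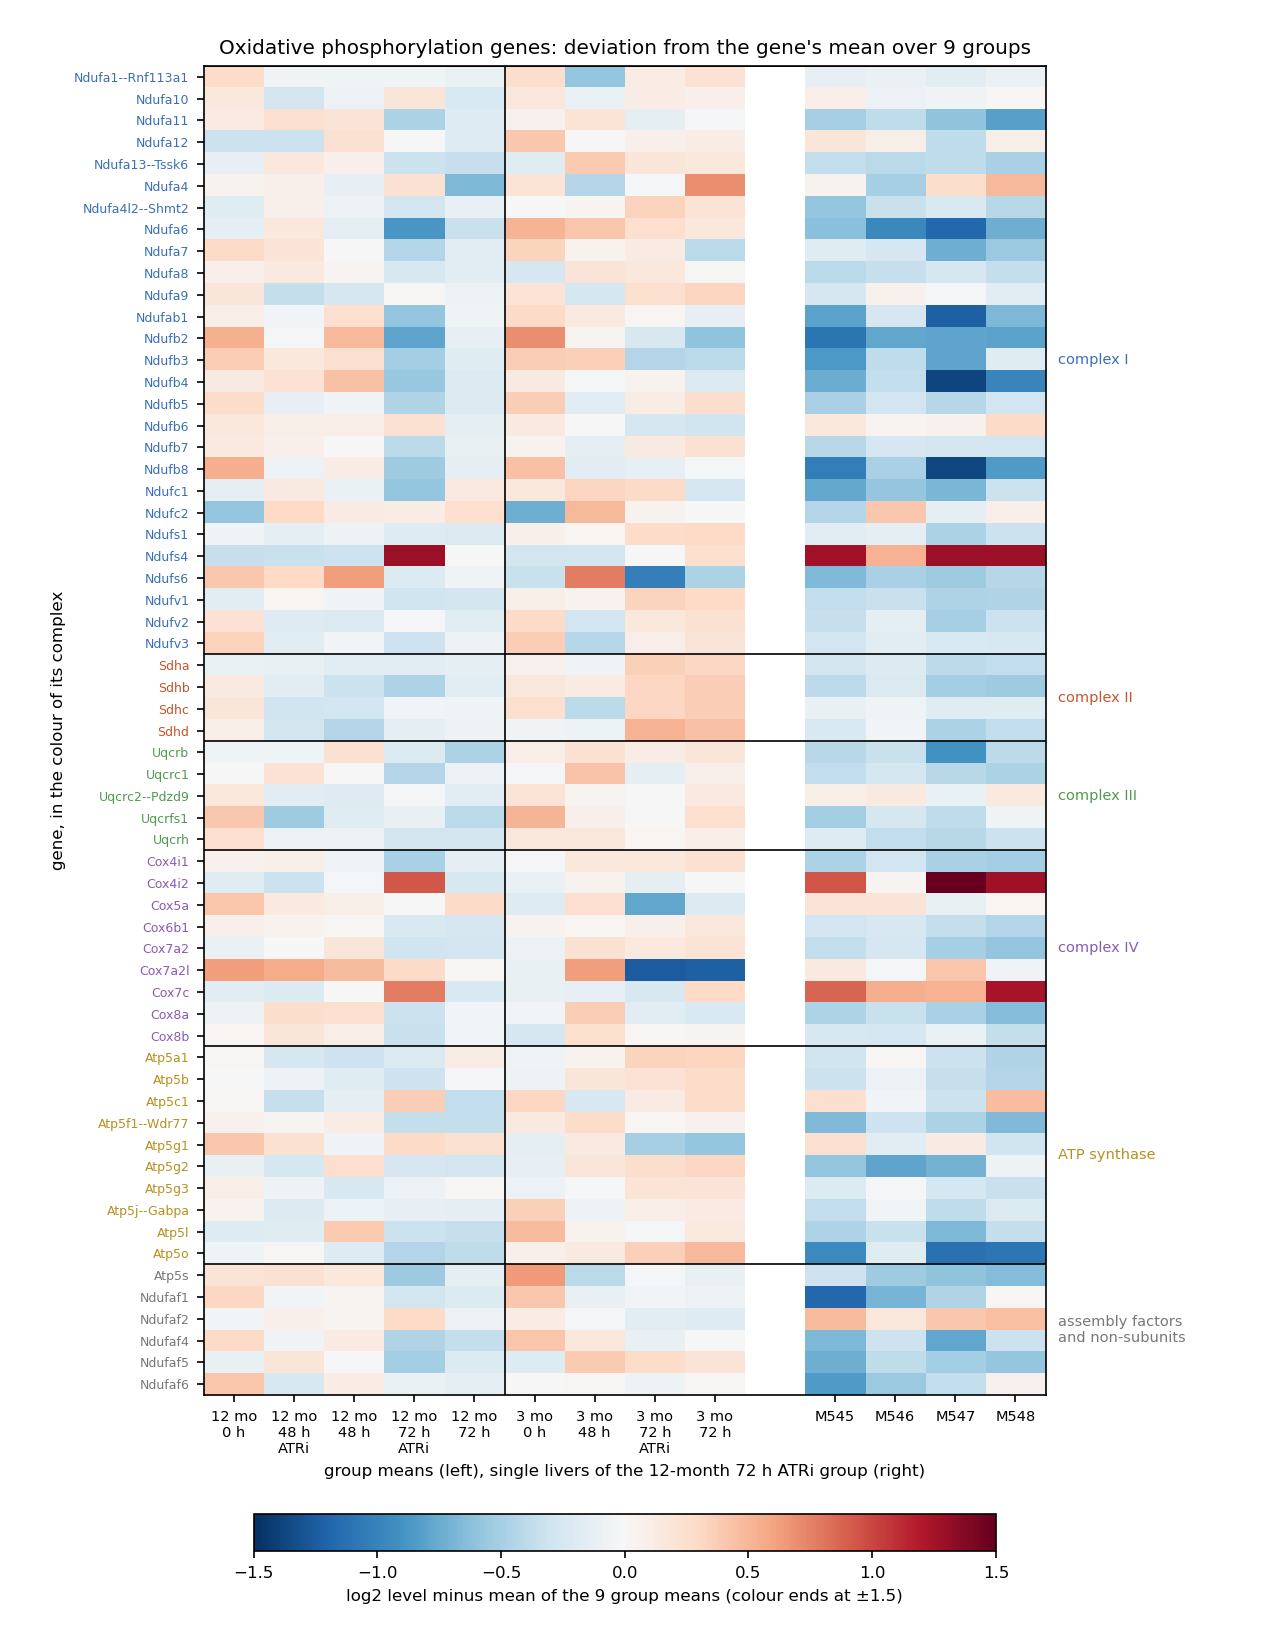
Deviation of 61 members (rows, coloured by complex) from its own mean over the 9 group means, on the log2 scale, for the group means (left) and the 4 livers M545 to M548 of the 12-month ATRi group at 72 h (right). The column of that group is blue for most members of complex I, while Ndufs4, Cox4i2 and Cox7c are red there. Complex II is red at 3 months and 72 h, with and without ATRi.

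The time after PH was compared first, in untreated mice. At 3 months the members' median at 72 h was near their level before PH, whereas at 12 months most were lower at 72 h. At 12 months, 55 of the 62 were lower at 72 h than at 0 h, beside 60% of all genes, with a median difference of -0.24 against -0.09 for all genes. At 3 months, 32 were lower at 72 h than at 0 h, beside 60.6% of all genes, with a median of -0.02 against -0.09. These groups have means only, so no difference between them was tested. Set side by side, 45 of the 62 had a lower difference at 12 than at 3 months (45.4% of all genes), 29 were below 0 at both ages (48.2%) and 26 at 12 months only (11.8%).

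At 12 months all 4 genes of complex II were lower at 48 h than at 0 h, with a median difference of -0.46, and all 4 were then higher at 72 h than at 48 h, with a median of 0.18. At 3 months all 4 were higher at 72 h than at 0 h, with a median of 0.23, and their median difference of 72 h from 48 h was 0.44. Sdhd, which with Sdhc anchors the enzyme in the membrane, averaged 8.38 at 0 h, 7.85 at 48 h and 8.21 at 72 h in 12-month livers. In 3-month livers it averaged 8.24, 8.22 and 8.73 at those times. Sdhc averaged 6.82, 6.36 and 6.58 at 12 months, and 6.88, 6.24 and 7.01 at 3 months. Like the other genes of complex II, Sdhc was lowest at 48 h at both ages. For Sdhb and Sdhd at 3 months the difference of 48 h from 0 h was only -0.04 and -0.03. Sdhb, the iron-sulfur subunit, averaged 7.90, 7.45 and 7.59 at 12 months, and 7.93, 7.89 and 8.13 at 3 months. Sdha, the flavoprotein subunit, ran from 7.86 to 7.94 over the untreated groups at 12 months and from 7.98 to 8.35 at 3 months.

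In the other complexes at 12 months the median difference of 72 h from 0 h was -0.29 in complex I, -0.41 in complex III, -0.13 in complex IV, -0.17 in ATP synthase and -0.43 in the assembly factors. All 5 genes of complex III were lower. At 3 months it was -0.10 in complex I, -0.06 in complex III, 0.11 in complex IV, 0.12 in ATP synthase and -0.36 in the assembly factors. At 48 h complex IV was at 0.07 in 12-month livers and at 0.31 in 3-month livers.

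**Figure D2:**
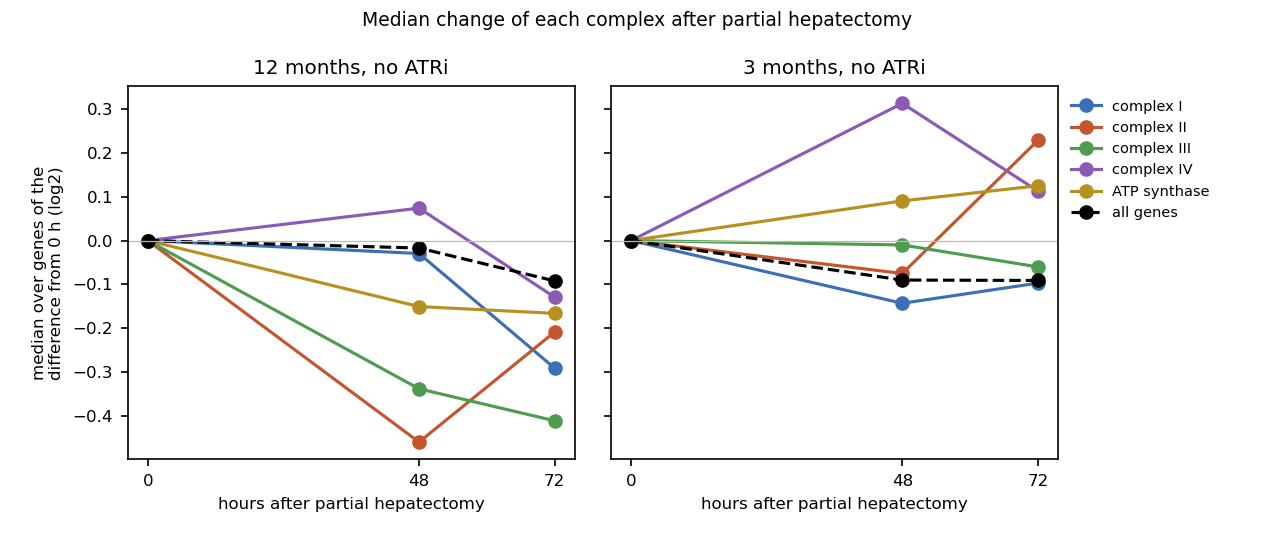
Median over the genes of each complex, and over all genes (dashed), of the log2 difference from 0 h, at 48 and 72 h after PH without ATRi, at 12 months (left) and 3 months (right). Complex II dips to -0.46 at 48 h in the 12-month livers and stands at 0.23 at 72 h in the 3-month livers.

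Single members differed by more than the complexes, and differences of 0.5 or more were counted without a test. At 12 months 1 member was 0.5 or more higher at 72 h than at 0 h (10.2% of all genes) and 10 were that much lower (10.2%). The member that was higher was Ndufc2, an accessory subunit of complex I, which averaged 4.14 at 0 h, 4.86 at 48 h and 4.98 at 72 h. Lowest were Uqcrfs1, the Rieske iron-sulfur protein of complex III (-0.81), Ndufa4 (-0.73), Ndufb8 (-0.68), Ndufb2 (-0.65) and Ndufaf4 (-0.65). At 3 months 2 members were higher at 72 h than at 0 h by that amount (8.53%) and 5 lower (13%). Ndufc2 (0.75) and Ndufs4 (0.53), an accessory subunit needed for a stable complex I, were the higher ones. Ndufb2 (-1.31), Cox7a2l (-1.11), Ndufb3 (-0.77), Atp5s (-0.74) and Ndufa7 (-0.74) were the lower ones.

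At 48 h, 12-month livers had 3 members 0.5 or more higher than at 0 h (9.94% of all genes), Ndufc2 (0.71), Atp5l (0.58) and Ndufa12 (0.56). They had 2 that were that much lower (8.71%), Uqcrfs1 (-0.58) and Sdhd (-0.54). At 3 months 6 members were higher by that amount (10.5%) and 11 lower (13.2%). Ndufc2 (1.23), Ndufs6 (1.11), Cox7a2l (0.74) and Ndufaf5 (0.58) were among the highest. Atp5s (-1.04), Ndufa1 joined with Rnf113a1 (-0.84), Ndufv3 (-0.80), Ndufb2 (-0.66) and Ndufa4 (-0.64) were lowest. Ndufc2 was thus the highest member against 0 h at both times and both ages.

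Between 48 and 72 h, 12-month livers had 0 members 0.5 or more higher at 72 h (10.9% of all genes) and 8 lower (14.5%), led by Atp5l (-0.73), Uqcrb (-0.70) and Ndufs6 (-0.68). In 3-month livers 9 members were that much higher (10.8%), led by Ndufa4 (1.13), Ndufa1 joined with Rnf113a1 (0.79) and Sdhc (0.77), and 7 were lower (13.1%), led by Cox7a2l (-1.86), Ndufs6 (-1.25) and Ndufb3 (-0.76). Cox7a2l, which promotes the joining of complexes III and IV into supercomplexes, averaged 5.63, 5.48 and 5.03 at 0, 48 and 72 h in 12-month livers and 4.90, 5.64 and 3.78 in 3-month livers. Ndufs6, a zinc-binding subunit of complex I, averaged 3.84, 4.07 and 3.39 at 12 months and 3.10, 4.21 and 2.97 at 3 months. For both genes the span over time was smaller at 12 than at 3 months.

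The ages were then set against each other at each time. Before PH and at 48 h the members lay close to all genes, and at 72 h most were lower at 12 months. The median of 12 minus 3 months was -0.02 at 0 h (all genes -0.05), -0.06 at 48 h (all genes 0.03) and -0.31 at 72 h (all genes -0.03). At 72 h, 48 of the 62 were lower at 12 months, beside 54.6% of all genes. The median was -0.28 in complex I, -0.48 in complex II, -0.38 in complex III, -0.25 in complex IV, -0.36 in ATP synthase and -0.13 in the assembly factors. All 4 genes of complex II, all 5 of complex III and 9 of the 10 of ATP synthase were lower at 12 months.

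At 72 h, 12 members were 0.5 or more lower at 12 months (6.65% of all genes) and 3 higher (8.23%). Ndufa4 averaged 0.43 at 12 months, against 1.79 at 3 months. Atp5o, a stalk subunit of ATP synthase, averaged 3.38 at 12 months, against 4.24 at 3 months. Uqcrb (-0.66), Uqcrfs1 (-0.64) and Atp5c1 (-0.64), which encodes the rotor subunit gamma, followed. The 3 higher members were Cox7a2l, at 5.03 in 12-month against 3.78 in 3-month livers, Atp5g1, at 4.92 against 4.11, and Cox5a, at 6.64 against 6.14. Before PH the same 3 genes were already 0.73, 0.54 and 0.62 higher at 12 months, and Ndufs6 was 0.74 higher. These 4 were the members 0.5 or more higher at 0 h (4.76% of all genes), and Ndufa12 (-0.73), Atp5l (-0.66) and Ndufa6 (-0.66) were the 3 that much lower (4.84%). At 48 h, Atp5s (0.57) and Ndufa1 joined with Rnf113a1 (0.51) were higher by that amount (4.34%) and Ndufa6 (-0.56) lower (3.87%).

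**Figure D3:**
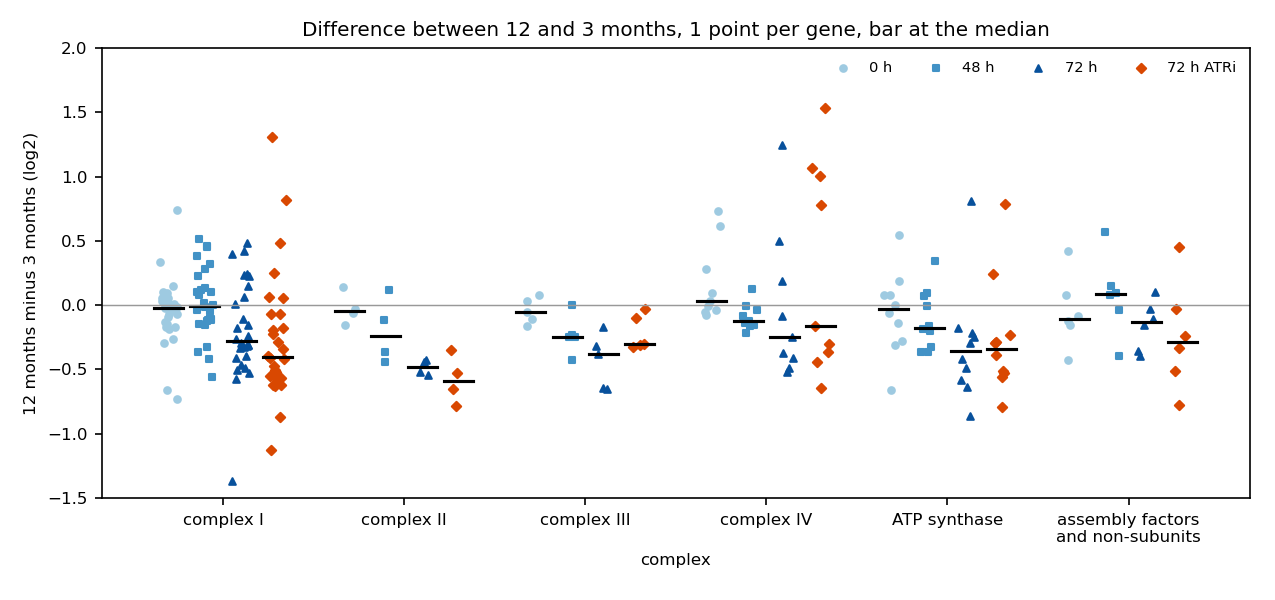
Difference of 12 minus 3 months (log2) for each member, by complex, at 0, 48 and 72 h without ATRi and at 72 h with ATRi, with a bar at the median of each set. At 72 h without ATRi the medians of complexes I to IV and of ATP synthase lie between -0.48 and -0.25, and Cox7a2l is the highest point of complex IV.

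Markers of macrophages and neutrophils also differed between the ages at 0 and 72 h. Of 13 macrophage markers 9 were measured, and their log2 levels at 72 h summed to 45.0 with ATRi and 47.1 without at 12 months, against 34.0 with and 36.3 without at 3 months. Of 10 neutrophil markers 6 were measured, with sums of 22.5 and 20.5 at 12 months, against 3.74 and 4.87 at 3 months. Before PH the sums were 39.3 (macrophages) and 14.7 (neutrophils) at 12 months, against 32.6 and 4.18 at 3 months. At 48 h without ATRi they were 30.5 and 4.70 at 12 months, against 33.3 and 5.42 at 3 months, so that neither list was higher at 12 months then. No marker of either list was at 0. Sums over the 9 measured hepatocyte markers of 12 were 73.7 and 73.8 at 12 months, against 75.3 and 76.8 at 3 months. The part of these cells in the differences between ages was not tested.

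With ATRi at 72 h the difference between the ages could be tested, because the 12-month group has single livers. The members again stood mostly lower at 12 months, with a few genes far above. At an adjusted p under 0.05 in limma, 19 members fell (9.96% of all genes) and 8 rose (18.3%) in 12-month against 3-month ATRi livers, with adjusted p from 0.0059 to 0.042. The median difference was -0.33, against 0.05 for all genes, and 49 were below 0, beside 45.6% of all genes. For 45 of the 62, each of the 4 livers at 12 months was below the 3-month mean (32.1% of all genes), and for 9 each was above it (34.4%). Such counts take the livers' own levels, not recentred. Their own deposited mean lay above all 4 livers in 25.8% of members and 11.8% of all genes. The counts therefore lean towards lower, more so for members. The 3-month group is a mean of 4 mice whose spread is unknown and is assumed to equal that of the 4 livers, and counting that mean as 1 mouse left 0 calls. Without M547, 4 members rose and 4 fell, and without M548, 5 rose and 5 fell.

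Complex II had 3 of its 4 genes among those that fell. Sdhb had levels of 7.37, 7.54, 7.25 and 7.23 in the 12-month ATRi livers M545 to M548, against a mean of 8.08 in 3-month ATRi livers. All 4 livers were below that mean, and Sdhb fell by 0.78 ± 0.12 on the log2 scale (SE, n = 4 livers at 12 months, adjusted p = 0.0097 in limma across all genes). Sdhd had 8.06, 8.25, 7.82 and 7.92 against a mean of 8.81, and Sdha 7.76, 7.83, 7.64 and 7.67 against 8.39, again with every liver below. Their differences were -0.65 and -0.53. Sdhc, at -0.35, was not called.

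In complex I, 10 of 28 genes fell and 3 rose. Ndufa6, an accessory subunit of the LYR family, had 1.52, 1.19, 0.97 and 1.42 in the 12-month ATRi livers, against a mean of 2.41 at 3 months. It fell by 1.13 ± 0.18 (SE, adjusted p = 0.0099 in limma across all genes), with no liver near the 3-month mean. The others that fell were Ndufc1 (-0.87), Ndufa4l2 joined with Shmt2 (-0.62), Ndufv1 (-0.62), which carries the NADH-binding flavin, Ndufb5 (-0.56), Ndufb7 (-0.52), Ndufa13 joined with Tssk6 (-0.51), Ndufs1 (-0.48), Ndufv3 (-0.41) and Ndufa8 (-0.40). Ndufs4 (1.30), Ndufs6 (0.81) and Ndufb6 (0.48) rose. In complex IV, Cox4i1 (-0.65) and Cox7a2 (-0.44) fell, and Cox7a2l, Cox7c and Cox5a (0.78) rose. Cox7c lay between 1.12 and 1.83 in the 12-month ATRi livers, against a mean of 0.36 at 3 months. Cox7a2l had 5.15, 4.98, 5.43 and 4.95 in 12-month ATRi livers, against a mean of 3.76 at 3 months. It rose by 1.53 ± 0.17 (SE, adjusted p = 0.0059 in limma across all genes), with every liver more than 1 above the 3-month mean.

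In ATP synthase the catalytic-head genes Atp5a1 (-0.56) and Atp5b (-0.53) fell and Atp5g1 (0.78) rose. Of complex III, 0 genes were called in limma, and at an unadjusted p under 0.05 0 were higher and 2 lower (26.7% and 16.8% of all genes). Among the assembly factors Ndufaf5 (-0.78) and Atp5s (-0.52) fell and Ndufaf2 (0.45) rose. Cox7a2l, Atp5g1, Cox5a and Ndufs6 were higher at 12 months at 0 h as well as with ATRi at 72 h. The 72 h comparison without ATRi gave 1.25, 0.81, 0.50 and 0.42 for these genes, with no test. Pseudogene copies that can share reads numbered 1 for Cox7a2l, 2 for Atp5g1, 0 for Cox5a and 1 for Ndufs6.

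**Figure D4:**
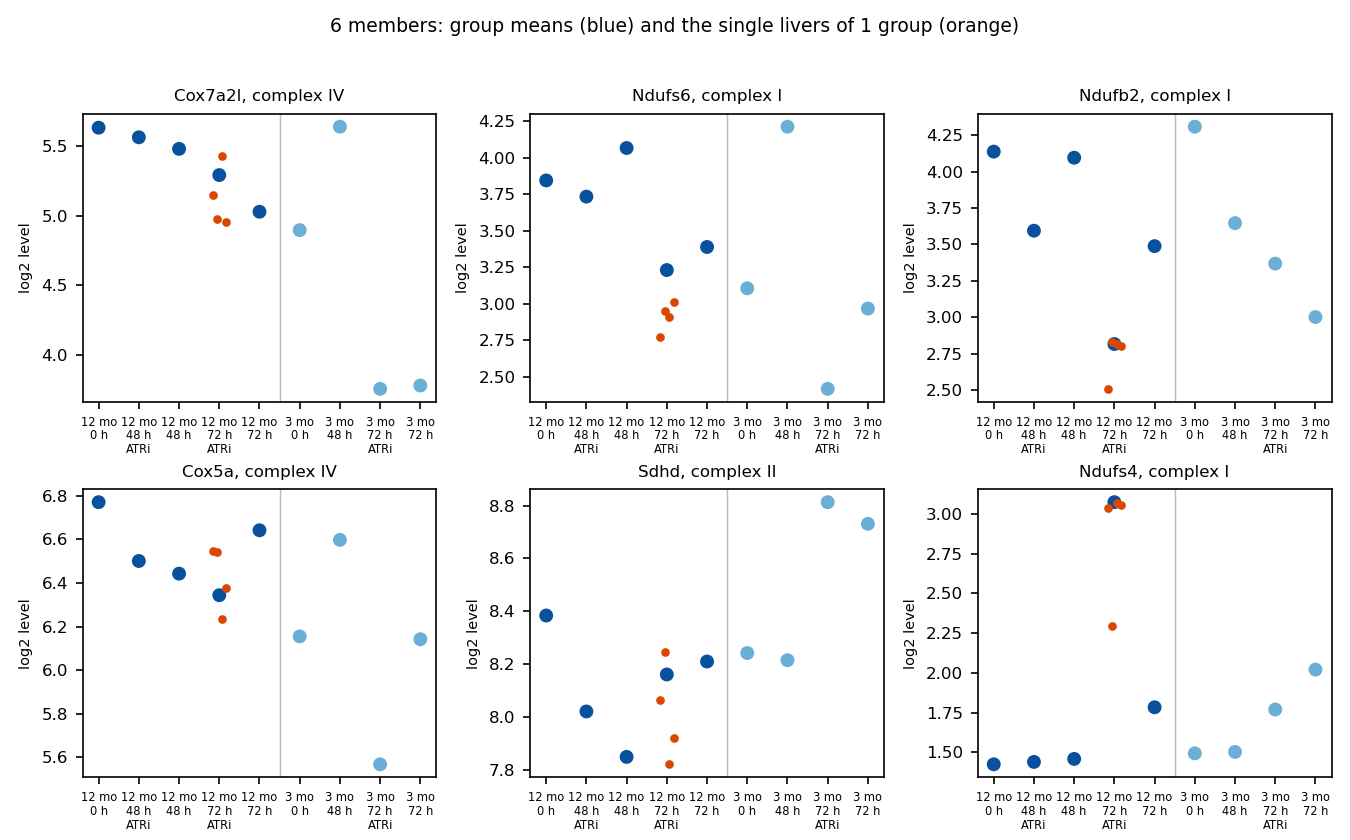
Log2 level of 6 members in the 9 groups, as group means (dark blue at 12 months, light blue at 3 months) and as the 4 single livers of the 12-month ATRi group at 72 h (orange). Cox7a2l lies at 3.78 and 3.76 at 72 h in 3-month livers and at 4.90 or above in every other group, and Ndufs4 lies at 2.29 or above in the 4 single livers and at 2.02 or below in the means of the other groups.

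The 12-month ATRi livers at 72 h were also compared with 12-month livers before PH. In complex I, 15 of 28 genes fell, and in complex III 3 of 5. In all, 26 members fell (22.5% of all genes called lower) and 5 rose (25.6% called higher) at an adjusted p under 0.05 in limma, with adjusted p from 0.0016 to 0.041. The median difference was -0.31, against -0.02 for all genes. On the livers' own levels, which lean towards lower, 52 members had all 4 livers below the 0 h mean (36.6% of all genes). All 4 were above it in 5 (31.5%). All 4 of these mice contributed to the 0 h mean, and the fit treats them as independent. Without M547, 3 rose and 13 fell, without M548, 2 rose, and with every mean counted as 1 mouse 0 rose and 1 fell.

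Ndufb2 changed most among the genes that fell. Its levels were 2.51, 2.83, 2.81 and 2.80 in the ATRi livers, against a 0 h mean of 4.14. All 4 livers were more than 1 below that mean, and the fall was 1.32 ± 0.15 on the log2 scale (SE, n = 4 ATRi livers, a log2 difference of -1.32, adjusted p = 0.0016 in limma across all genes). The falls in complex I included Ndufb8 (-1.08), Ndufb3 (-0.89), Ndufa7 (-0.73), Ndufb5 (-0.73), Ndufa6 (-0.73), Ndufb4 (-0.71), Ndufab1 (-0.68), which encodes the mitochondrial acyl carrier protein, Ndufv3 (-0.66), Ndufs6 (-0.61) and Ndufa11 (-0.60). Of the 7 Ndufb genes measured, all but Ndufb6 fell. In complex III, Uqcrh (-0.53), a hinge protein, Uqcrfs1 (-0.52) and Uqcrc1 (-0.44), a core protein, fell. In complex IV, Cox4i1 (-0.55), Cox5a (-0.43), Cox8b (-0.35) and Cox6b1 (-0.30) fell. Sdhb (-0.60) in complex II, Atp5f1 joined with Wdr77 (-0.43) in ATP synthase, and Atp5s (-0.75) and Ndufaf4 (-0.73) outside the complexes fell too.

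The genes that rose against 0 h were Ndufs4, Cox4i2, Cox7c, Ndufc2 and Ndufaf2. Ndufs4 had 3.04, 2.29, 3.07 and 3.05 in the ATRi livers, against 1.42 at 0 h. Every liver was above the 0 h mean, with M546 lowest, and the rise was 1.65 ± 0.20 (SE, adjusted p = 0.0018 in limma across all genes). The differences of the others were 1.11 for Cox4i2, 0.93 for Cox7c, 0.70 for Ndufc2 and 0.33 for Ndufaf2.

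Against the 12-month ATRi mice at 48 h, the 72 h livers had 14 members that fell (17.8% of all genes) and 3 that rose (19.4%) at an adjusted p under 0.05 in limma, with adjusted p up to 0.043. These groups also differ in the kind of mouse label, which cannot be told apart from time. Ndufa6 had 1.52, 1.19, 0.97 and 1.42 at 72 h, against 2.31 at 48 h. All 4 livers were below the 48 h mean, and it fell by 1.03 ± 0.19 (SE, adjusted p = 0.0101 in limma across all genes). The other falls included those of Ndufb2 (-0.78), Atp5s (-0.77), Ndufa11 (-0.72), Ndufc1 (-0.71), Ndufaf5 (-0.69), Uqcrc1 (-0.66), Cox8a (-0.58), Cox4i1 (-0.57), Cox8b (-0.51), Ndufa13 joined with Tssk6 (-0.49), Ndufb7 (-0.47) and Ndufa8 (-0.38). Ndufs4 (1.64), Cox4i2 (1.25) and Cox7c (0.98) rose. The marker sums differed in the same comparison, at 45.0 in 72 h and 31.5 in 48 h ATRi livers for macrophages and at 22.5 and 5.53 for neutrophils, and their part in it was not tested. On their own levels, which lean towards lower, all 4 livers were below the 48 h mean for 36 members (37.9% of all genes). For 10 members all 4 were above it (32.6%). Without M547 the falls numbered 4, without M548 they numbered 7, and with every mean counted as 1 mouse 1 rose and 1 fell.

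The effect of ATRi itself was asked at 72 h in 12-month livers, against untreated livers of the same age and time. Few members differed, and those that did moved in both directions. Ndufs4 and Cox7c rose and Ndufc1 fell at an adjusted p under 0.05 in limma, so that 2 members were called higher (9.04% of all genes) and 1 lower (2.38%). The median difference was -0.05, against 0.08 for all genes, and 36 members were below 0, beside 42.4% of all genes. For 31 members each of the 4 livers was below the untreated mean (25.8% of all genes) and for 9 each was above it (34.7%). These counts take the livers' own levels and lean towards lower, whereas the median of -0.05 is between deposited means.

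Ndufs4 had 3.04, 2.29, 3.07 and 3.05 in ATRi livers, against 1.78 in untreated livers. Cox7c, a small subunit of complex IV, had 1.47, 1.14, 1.12 and 1.83 against 0.37. Ndufc1, an accessory subunit of complex I, had 0.93, 1.12, 1.01 and 1.38 against 1.84. In none of the 3 genes did an ATRi liver reach the untreated mean. The log2 differences were 1.29 ± 0.23 for Ndufs4 and 0.99 ± 0.18 for Cox7c (SE, both with an adjusted p of 0.0429 in limma across all genes), and -0.73 ± 0.15 for Ndufc1 (adjusted p = 0.0434). Cox4i2, the hypoxia-responsive isoform of subunit 4, had 1.52, 0.62, 2.13 and 1.84 in ATRi livers against 0.33, a difference of 1.17 that was not called (adjusted p = 0.0624 in limma). Ndufa4 (0.90), Atp5c1 (0.73), Ndufb2 (-0.67), Ndufa6 (-0.54), Ndufab1 (-0.51) and Ndufb8 (-0.41) were likewise not called.

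The 3 calls sat close to the threshold. Without M545, M547 or M548, and with the untreated mean counted as 1 mouse, 0 members were called in limma, while at an unadjusted p under 0.05 all 4 livers gave 8 higher and 8 lower (24.7% and 9.63% of all genes). The same settings, and the livers' own levels, left 0 calls among all genes. Without M546, whose levels of Ndufs4 and Cox4i2 were the lowest of the 4, 5 members rose and 2 fell (18.8% and 5.32% of all genes): Ndufs4 (1.48), Cox4i2 (1.48), Ndufa4 (1.09), Cox7c (1.08) and Ndufaf2 (0.45) higher, Ndufb2 (-0.70) and Ndufc1 (-0.73) lower. The neutrophil sum was 25.8 in M546 and 18.0 to 18.8 in the other livers, and its part in these values was not tested. M545 stood apart in other marker sums. Its macrophage sum was 48.3, against 42.1 to 42.9 in the other livers. Sinusoidal endothelial markers summed to 35.2, against 43.7 to 45.0, and stellate cell markers to 28.1, against 23.1 to 23.9. The part of these sums was not tested either. The scale also matters here. The median level of all genes was 2.86 in the 12-month ATRi group at 72 h, above the 2.63 of untreated 12-month livers at 72 h and at 0 h, 2.72 of the 48 h ATRi group and 2.66 of the 3-month ATRi group. With every sample centred on its median, 8 members were called lower and 2 higher against untreated livers, and the split over all genes was 966 lower and 528 higher in place of 265 lower and 1005 higher. The members' centred medians were -0.27 against untreated livers, -0.53 against 0 h, -0.37 against 48 h ATRi and -0.53 against 3-month ATRi livers. Centring takes the shift of the median level, 0.22, 0.22, 0.14 and 0.20 in that order, from every gene. Before centring, the median differences of all genes were 0.08, -0.02, -0.01 and 0.05, so all genes move down with the members. Livers M545 to M548 had median levels of 2.74, 2.63, 2.70 and 2.67, each below the 2.86 of their deposited mean.

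Gene length moved with the difference between ATRi and untreated livers at 12 months. Across all 10409 genes with a span, Spearman's rho between span and difference was 0.42, a description across genes, which are not independent. The median difference was -0.02 for genes under 5 kb, -0.10 for those of 10 to 20 kb and 0.50 for those over 100 kb. Members are short, with a median span of 9.29 kb, against 26.7 kb for all genes, and 43 of the 55 with a span of their own are 20 kb or less. Within the members rho was 0.26 (n = 55). Members of 20 kb or less had a median of -0.16, against -0.09 for all genes of that span, and the 12 longer ones 0.13, against 0.19. Ndufs4 (chr13:114287795-114388258, - strand, 100 kb in GRCm38) and Ndufaf2 (156 kb) are the only members over 100 kb. At 3 months rho was 0.01 for the members and -0.06 for all genes, and for 12 against 3 months at 72 h without ATRi it was 0.00 and -0.02. For 12 against 3 months at 72 h with ATRi it was 0.15 and 0.29. The 12-month ATRi livers at 72 h had 0.16 and 0.39 against 0 h, and 0.29 and 0.40 against 48 h ATRi. Untreated livers at 72 h against 0 h had -0.02 for the members and 0.26 for all genes at 12 months, and -0.02 and 0.17 at 3 months. At 72 h against 48 h in untreated 3-month livers the values were 0.23 and 0.28, so a relation to span was not limited to ATRi. The part of gene length in these differences was not tested.

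**Figure D5:**
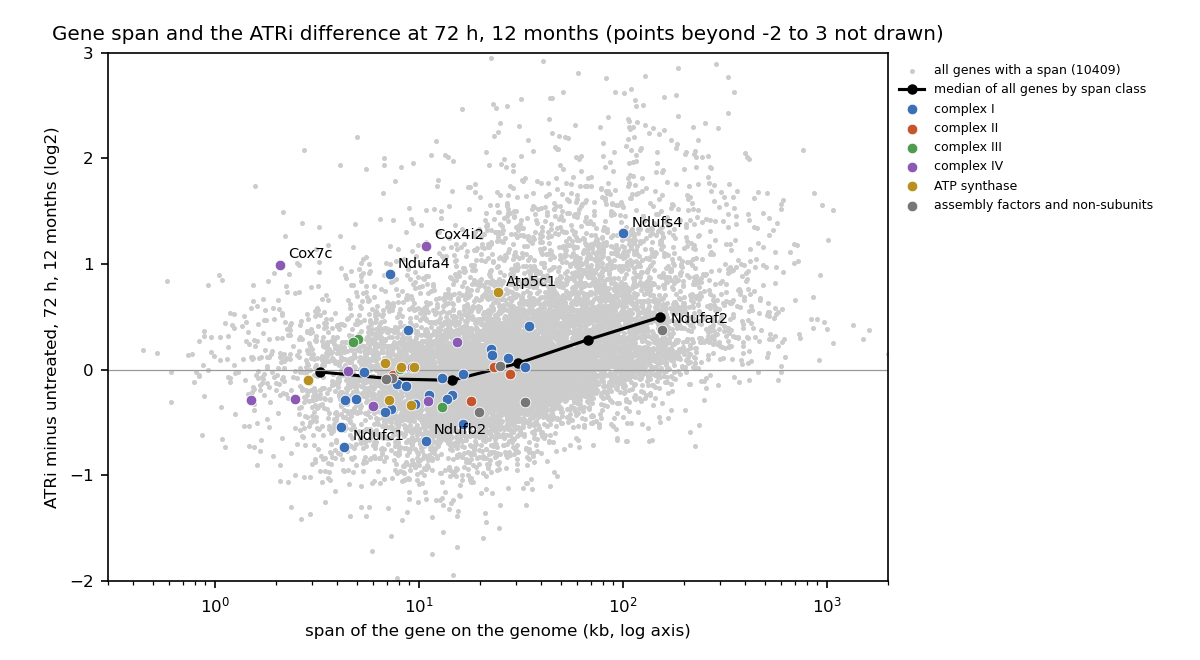
Log2 difference of ATRi minus untreated 12-month livers at 72 h against the span of each gene on a log axis in kb, for all genes (grey) and the members by complex (coloured), with the median of all genes in classes of span (black). Most members lie to the left of 20 kb, and Ndufs4, at 100 kb, is the highest of the labelled members.

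At 3 months the ATRi group and the untreated group at 72 h both have means only, and few members stood apart between them. The median difference was -0.05, against 0.00 for all genes. Ndufc1 averaged 1.99 with ATRi, against 1.45 without, and Ndufa7 2.34 against 1.82, the 2 members that were 0.5 or more higher (1.52% of all genes). The 4 that were that much lower (1.8%) were Ndufa4 (-0.71), Cox5a (-0.57), Ndufs6 (-0.55) and Cox7c (-0.53). At 48 h in 12-month livers the median was 0.02, against 0.00 for all genes, with 0 members 0.5 or more higher (3.72%) and 4 lower (2.6%), Atp5l (-0.58), Ndufa12 (-0.56), Atp5g2 (-0.52) and Ndufb2 (-0.50). Against 0 h, the ATRi groups without single livers had medians of -0.08 at 48 h in 12-month livers and -0.10 at 72 h in 3-month livers.

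Whether the ATRi difference at 72 h depended on age was tested as an interaction. Limma called 0 members higher and 0 lower (0.00899% and 0% of all genes), while at an unadjusted p under 0.05 there were 5 higher and 5 lower (16.9% and 7.44% of all genes). Ndufa4 had the largest value: ATRi minus untreated was 0.90 at 12 months and -0.71 at 3 months, a difference of 1.61. Cox7c (1.53) and Ndufs4 (1.54) followed, and Ndufc1 was lowest at -1.27. The smallest adjusted p was 0.102 in limma. Without M546 the same fit called 5 higher (9.49% of all genes), namely Ndufa4, Ndufs4, Cox4i2, Cox7c and Ndufaf2, and 1 lower (2.3%), Ndufc1.

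Some subunits are made by alternative genes. The common isoform of subunit 4, Cox4i1, had 8.58, 8.78, 8.57 and 8.55 in 12-month ATRi livers at 72 h, against 8.92 in untreated livers, while Cox4i2 was 1.17 higher. The ubiquitous Cox7a2 ranged over 0.52 between the 9 means, against 1.88 for its relative Cox7a2l. Cox8a, the ubiquitous form of subunit 8, averaged 5.62 with ATRi and 5.89 without at 72 h in 12-month livers, and Cox8b, the form known from heart and skeletal muscle, 6.50 and 6.79. Both fell against 48 h ATRi livers. Tnnt2, the only 1 of 7 muscle markers measured, lay between 0.24 and 0.74 in the 9 means. Of the 3 genes for the c subunit of ATP synthase, Atp5g1 averaged 4.92 at 12 months and 4.11 at 3 months in untreated livers at 72 h, Atp5g2 2.43 and 3.02, and Atp5g3 7.81 and 7.99. Atp5g1 was thus higher at 12 months where the other 2 were lower. Ndufa4l2, a hypoxia-linked relative of Ndufa4, is measured only together with Shmt2, whose reads it cannot be separated from.

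Other genes of mitochondrial energy metabolism were set beside the members. Tricarboxylic acid cycle genes, 12 of 13 measured, had a median of 12 minus 3 months of -0.39 at 72 h without ATRi. At 12 months 10 of the 12 were lower (54.6% of all genes), among them citrate synthase Cs (-0.68). With ATRi 2 of the 12 rose (18.3% of all genes) and 6 fell (9.96%) at 12 against 3 months in limma. All 12 were higher at 72 h than at 0 h in 3-month livers, with a median of 0.24, where the members' median was -0.02. Of all genes, 60.6% were lower there. In 12-month ATRi against untreated livers at 72 h, Suclg2 (1.39 ± 0.24, SE, adjusted p = 0.0429 in limma) and Ogdh (1.24 ± 0.28, adjusted p = 0.0445) rose. Mitochondrial ribosomal protein genes, 47 measured, had a median of -0.30 at 72 h against 0 h at 12 months. Their log2 levels without ATRi were lower at 72 h at both ages. They summed to 191.3 at 72 h and 200.3 at 0 h at 3 months, and to 189.6 and 203.9 at 12 months. In 12-month ATRi livers at 72 h, 27 of these genes fell (22.5% of all genes) and 4 rose (25.6%) against 0 h. Assembly factors outside the members, 30 of 40 measured, had a median of -0.25 in untreated 12-month livers at 72 h against 0 h. Of the 30, 27 were lower (60% of all genes), and with ATRi 10 fell (22.5%) and 3 rose (25.6%). In 3-month livers without ATRi their log2 levels also summed lower at 72 h (117.1) than at 0 h (121.8). Electron carriers and linked enzymes, inner-membrane transporters and outer-membrane channels formed a further list, with 13 of 13 measured. With ATRi against 0 h it had 1 rise, Vdac3 (25.6% of all genes), and 2 falls, Cycs and Etfdh (22.5%). Of 13 measured regulators of 14, Ppargc1a, a coactivator of mitochondrial genes, had 3.86, 1.48, 3.49 and 2.83 in 12-month ATRi livers at 72 h, against 1.20 in untreated livers. Every liver was above the untreated mean, and the rise was 2.21 ± 0.52 (SE, adjusted p = 0.0472 in limma). Lrpprc (0.77, adjusted p = 0.0498 in limma) was the other regulator that rose, beside 9.04% of all genes called higher. The calls of Suclg2, Ogdh, Ppargc1a and Lrpprc, like those of the members, were lost without M545, M547 or M548 and with the untreated mean counted as 1 mouse. Against 0 h, regulators were called in both directions. Ppargc1a (2.11), Yy1 (0.78) and Lrpprc (0.76) rose. Tfb1m joined with Tiam2 (-0.89), Esrra joined with Trmt112 (-0.77) and Polrmt (-0.46) fell. With ATRi at 72 h, Ppargc1a (1.83) rose and Ppargc1b (-0.87) fell in 12-month against 3-month livers.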

How the data were processed

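RNA sequencing of polyadenylated liver RNA gave 12 deposited tables of 40 samples in 9 groups, with 11119 genes each. Values are log2 levels of a quantity the authors call sigma, per the file headers, which is not defined there. The build is GRCm38/mm10, per the submitters' processing notes, and the aligner, counting, scaling and filters are not given in the sources used here. Groups come from the labels. Values were used as deposited, without a filter or further scaling.

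In 5 comparisons involving the 12-month ATRi group at 72 h, limma 3.58.1 in R 4.3.3 was fitted to all genes (two-sided, Benjamini-Hochberg adjusted p under 0.05, intensity trend, robust empirical Bayes). Its 4 livers were recentred per gene on the authors' mean, and each other group entered as its mean, with the number of mice as weight. The spread therefore comes from those livers alone, separate mice per their labels. The other 13 comparisons are differences of means, counted at 0.5 or 1 without a test. Members and lists were chosen with earlier results of these data known.

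Named members are drawn from the 5 highest and 5 lowest of each comparison, all past the test, those at 1 or more, the widest and narrowest ranges per complex, and isoform pairs. The values of 1 member are not reported here, though counts and medians include it. Promoters were read from RefSeq tables, spans from GENCODE, and pseudogene copies found with blastn 2.17.0. Alternatives were another weighting, the livers' own levels, no trend, centring on the median, a level above 1, joined entries left out, and each liver left out. Tested on simulated data for ATRi against untreated 12-month livers at 72 h (11119 genes, 3 runs, 200 changed genes), 43.7% of the changes of size 1 and 80.3% of those of size 2 were found, and 4.86% of calls were false. The simulation gave every group the livers' spread and left out the offset between the livers and their deposited mean. These rates therefore assume what the weighting assumes, and do not give the share of false calls in the real data.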

Additional observations from a re-analysis of the deposited data

Results flagged for a closer look

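In 4 of the 62 members 1 of the 4 livers of the 12-month ATRi group at 72 h lay far from the other 3. Chance alone sets apart about 1 in 20 groups, and 688 of the 11119 genes (6.19%) had such a liver, against 6.45% of the members. Ndufb2 was lowest in M545, at 2.51, with the other livers between 2.80 and 2.83. Ndufs4 was lowest in M546, at 2.29, with the others between 3.04 and 3.07. Cox4i1 was highest in M546, at 8.78, with the others between 8.55 and 8.58. Uqcrb was lowest in M547, at 2.18, with the others between 2.67 and 2.76. Ndufs4 and Ndufb2 keep the same side of the means of untreated 12-month livers at 72 h and at 0 h in all 4 livers.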

How the results depend on the processing

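No paired analysis was possible because single values exist for 1 group only, although mouse numbers recur between groups. Of 78 calls none reversed, and 3 were made under every setting (among them Ndufb2 against 0 h and Ndufs4 against 48 h ATRi). Giving each mean a weight of 1 lost 75 calls. It left 0 higher and 0 lower members against untreated 12-month livers at 72 h, 0 and 1 against 0 h, 1 and 1 against 48 h ATRi, and 0 and 0 for 12 against 3 months with ATRi. With the livers' own levels there were 0 and 0 against untreated livers, and 23 lower against 48 h ATRi. Without the intensity trend 2 were lower against untreated livers. Centred on the median, 8 were lower against untreated livers, 3 higher and 46 lower against 0 h, 24 lower against 48 h ATRi, and 34 lower for 12 against 3 months. At levels above 1, 2 were higher against 0 h and 1 against 48 h ATRi.

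Leaving out 1 liver at a time gave, as higher and lower members, 0 to 5 and 0 to 2 against untreated livers, 2 to 5 and 13 to 25 against 0 h, 2 to 4 and 4 to 16 against 48 h ATRi, 4 to 9 and 4 to 21 for 12 against 3 months, and 0 to 5 and 0 to 1 for the interaction. Centring moved the members' median difference to -0.14 for 48 h against 0 h, -0.12 for 72 h against 48 h and -0.17 for 48 h ATRi against 0 h, all at 12 months. The mean in place of the median was -0.0051 for 72 h against 48 h at 3 months, and -0.22 for 12 against 3 months at 72 h. Depth is unknown, so low levels such as those of Cox7c, Cox4i2, Ndufaf2 and Ndufa4 have no counting interval.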
